A study of Mus musculus with 12 samples.

Results

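The Zfp genes code for zinc finger proteins, and they were examined here in the adrenal gland of 2 mouse strains that differ in glucose control. A member was any gene whose platform symbol began with Zfp and a digit. The array table held 86 such genes among 6986 named genes. Of these, 55 reached a group mean of 4 (log2 signal) somewhere and were tested, as were 4414 genes in all. The other 31 members stayed under that level in every group. Gene expression was measured on Affymetrix Mouse Gene 2.0 ST arrays in adrenal RNA of male KK/HlJ mice (KK-M), male C57BL/6J mice (C57-M), female KK/HlJ mice (KK-F) and female C57BL/6J mice (C57-F). The labels write the KK strain as KK/HIJ, and they give an age of 21 weeks and standard chow for every group, and name no drug, special diet or transgene. Mice of every group had been through insulin tolerance and behavioural tests. The KK strain is an inbred model of obesity and insulin resistance, and C57BL/6J was its comparison strain. Adrenal RNA was pooled within each group, and each pool was hybridised to 3 arrays, which gave 12 arrays. The 3 arrays of a group are repeat measurements of 1 pool, so the errors and p-values below measure the spread between arrays and not between mice.

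Zinc finger proteins of the C2H2 class fold a short loop around a zinc ion, and tandem fingers of this kind bind DNA in a sequence-dependent way. Many carry a KRAB domain, which recruits the corepressor Trim28 and with it enzymes that place repressive histone marks, above all on transposable elements. KRAB zinc finger genes lie in clusters of related copies, change quickly in evolution and vary in copy number between mouse strains. The Zfp symbol is a name and not a protein class, and some members are of other kinds, such as the mRNA decay factor Zfp36l1. RefSeq lists 81 of the 86 as protein coding, 2 as long non-coding RNAs and 2 as transcribed pseudogenes, and 1 was not matched. In RNA of a whole gland, a lower level per cell and a smaller share of the cells that express a gene cannot be told apart.

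The markers of the tissue were present on every array. Per array, the mean over the 4 adrenal cortex markers on the table lay between 9.11 and 11.03 (log2), and the mean over the 8 chromaffin cell markers between 7.12 and 8.22. Markers of other tissues moved with the groups. The mean over 15 skeletal muscle markers was 5.58 to 5.81 on the KK-M arrays, against 3.69 to 3.90 on the other 9, and the male strain contrast called 11 of the 13 tested ones higher in KK-M by the rule given below. The mean over 13 hepatocyte markers was 4.06 to 4.82 on KK-M and 4.17 to 4.20 on KK-F arrays, against 6.14 to 6.20 on C57-M and 6.77 to 6.81 on C57-F arrays, and 9 of the 13 were lower in KK males and 10 in KK females. Of 7 chromaffin cell markers tested, 5 were higher in KK in each sex. Every difference below that involves KK-M or a strain contrast therefore stands beside these shifts, and their part in it was not tested. The spread between arrays of a pool was widest in KK-M, with a residual SD of 0.22 (log2) over the 55 Zfp genes, against 0.18 to 0.21 in the other groups.

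A differentially expressed gene (DEG) was one with a fold change of at least 1.4 and an adjusted p under 0.05 by limma with Benjamini-Hochberg adjustment over all 4414 genes and the 4 pairwise contrasts. Strain was compared in males (KK-M v C57-M) and in females (KK-F v C57-F), and sex in each strain. The male strain contrast had 8 DEGs among the 55 Zfp genes (14.5%), against 20.4% of all tested genes. The female strain contrast had 2 (3.64%), against 18.6%. The KK sex contrast (KK-M v KK-F) had 6 (10.9%), against 18.8%. The C57 sex contrast (C57-M v C57-F) had 2 (3.64%), against 7.07%. Each share of the Zfp genes was below the background as the arrays were deposited. In the C57 sex contrast this turned with the scaling, to 7.27% against 6.74% after renewed quantile normalization and 9.09% against 7.31% after median centring. As deposited, 14 of the 55 (25.5%) were a DEG in any contrast, against 38.6% of all tested genes. Typical sizes were close to those of all genes, except for sex in KK mice, where they were smaller. The median absolute log2 difference of the Zfp genes was 0.23 and 0.20 for strain in males and females and 0.17 and 0.14 for sex in KK and C57 mice, against 0.24, 0.22, 0.23 and 0.14 over all tested genes. Only Zfp750 and Zfp493 differed by 2-fold or more in any of the 4 contrasts (3.64%, against 8.25% of all tested genes), and 39 members stayed under 1.4-fold in all 4 (70.9%, against 60.5%). The median log2 difference of the Zfp genes was -0.06 for strain in males and 0.08 for strain in females, against -0.07 and 0.03 over all tested genes. For sex it was -0.10 in KK and 0.04 in C57 mice, against -0.06 and 0.02 over all tested genes.

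**Figure D1:**
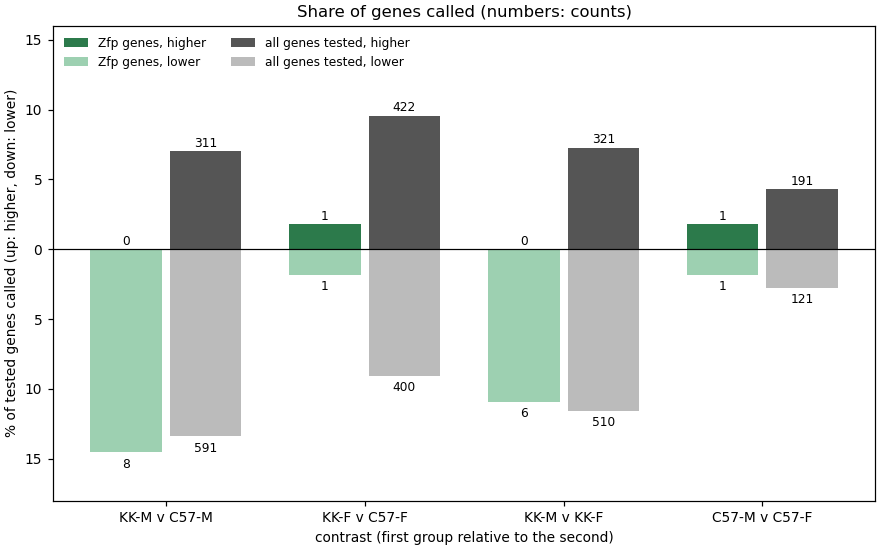
Percentage of the tested genes that were DEGs in each pairwise contrast, higher above the zero line and lower below it, with counts on the bars. In each contrast the Zfp genes (n = 55, green) stand left of all genes tested (n = 4414, grey), and every Zfp DEG in both contrasts that involve KK-M points down.

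The direction was uneven in the contrasts that involve KK-M. All 8 Zfp DEGs of KK-M v C57-M were lower in KK-M and none was higher, where 13.4% of all tested genes were lower and 7.05% higher. All 6 Zfp DEGs of KK-M v KK-F were also lower in KK-M, where 11.6% of all tested genes were lower and 7.27% higher. These contrasts share the KK-M arrays. In the female strain contrast 1 Zfp gene was higher and 1 lower, where 9.56% of all tested genes were higher and 9.06% lower. In the C57 sex contrast 1 was higher and 1 lower, where 4.33% were higher and 2.74% lower. The direction depends in part on the scaling of the arrays. After renewed quantile normalization, 0 Zfp DEGs were higher and 7 lower in the male strain contrast, and 1 and 5 in the female strain contrast. Of all 4419 genes tested under that scaling, 406 were higher and 415 lower in males, and 364 and 464 in females. In the KK sex contrast 2 Zfp DEGs were higher and 2 lower, against 497 and 312 of all genes. In the C57 sex contrast 3 were higher and 1 lower, against 183 and 115 of all genes. The filter also bears on these counts, because 11 of the 55 members reached a level of 4 in some groups only and could pass through the group where they were high. Among the 44 members at 4 or more in every group, the male and female strain contrasts had 4 and 0 DEGs by limma (9.09% and 0%). The KK and C57 sex contrasts had 3 and 2 (6.82% and 4.55%). The share among all genes at 4 or more in every group was not computed, so these counts have no background of their own. The values of the 3 arrays did not overlap between strains for 20 of the 55 members in males and 23 in females, against 47.6% and 48.4% of all tested genes. They did not overlap between sexes for 18 members in KK and 16 in C57 mice, against 46.0% and 32.2% of all tested genes. Without the filter, all 86 members entered the fit, and 10 were lower and 0 higher in KK-M against C57-M. In that fit 8.63% of all 6986 genes were lower and 4.85% higher. At the edge of the filter, Zfp738 passed with a mean of 4.01 in C57-M and Zfp938 did not with 3.95 in KK-M.

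Strain was compared first in males. Zfp729a, a KRAB zinc finger gene of the chromosome 13 cluster described below, had the largest difference. Its log2 values were 6.28, 5.96 and 6.04 in KK-M, against 6.76, 7.05 and 7.05 in C57-M, so the groups did not overlap. It was 1.81-fold lower in KK-M (log2 difference -0.86 ± 0.13 SE, limma adjusted p = 0.00027). Zfp131, which codes for a zinc finger protein with a BTB domain, was at 5.94, 6.07 and 5.42 in KK-M, against 6.67, 6.77 and 6.55 in C57-M. Replicate 3 of KK-M lay lowest and the groups were again apart, with a difference of -0.85 ± 0.15 (adjusted p = 0.001). Zfp366, also known as DC-SCRIPT, is a dendritic cell protein that acts as a corepressor of nuclear receptors. Its values were 4.10, 4.12 and 4.03 in KK-M, against 4.88, 4.75 and 4.995 in C57-M. It was 1.74-fold lower in KK-M (-0.80 ± 0.12, adjusted p = 0.00034).

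Zfp277, a partner of the Polycomb repressive complex, was at 5.41, 5.32 and 5.57 in KK-M, against 5.91, 6.18 and 5.99 in C57-M (-0.59 ± 0.09, limma adjusted p = 0.00038). Zfp458 and Zfp493 belong to the chromosome 13 cluster and were lower in KK-M by 0.64 ± 0.12 (adjusted p = 0.0014) and 0.61 ± 0.15 (adjusted p = 0.0088) on the log2 scale. Zfp458 was at 3.99, 3.83 and 3.73 in KK-M, against 4.59, 4.44 and 4.44 in C57-M. Neither gene had values that overlapped between the male groups, but both lay near the level of 4 at which a gene entered the test. Zfp322a, known for a role in the pluripotency of mouse embryonic stem cells, was at 3.37, 3.57 and 3.21 in KK-M, against 4.13, 4.40 and 3.73 in C57-M (-0.705 ± 0.17, adjusted p = 0.0069). Its only other probeset lay under the filter and differed by 0.04, so the 2 probesets of Zfp322a disagreed. With the mean of its probesets Zfp322a was not tested. Zfp251 was at 5.07, 5.26 and 5.01 in KK-M, against 5.79, 5.36 and 5.66 in C57-M. Its difference of -0.49 ± 0.13 (adjusted p = 0.014) sat at the fold threshold, and it was lost without replicate 1 or 3 of KK-M or replicate 1 or 3 of C57-M. The other 7 DEGs of this contrast stayed DEGs whichever array was left out. None of the 8 reached 2-fold.

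**Figure D2:**
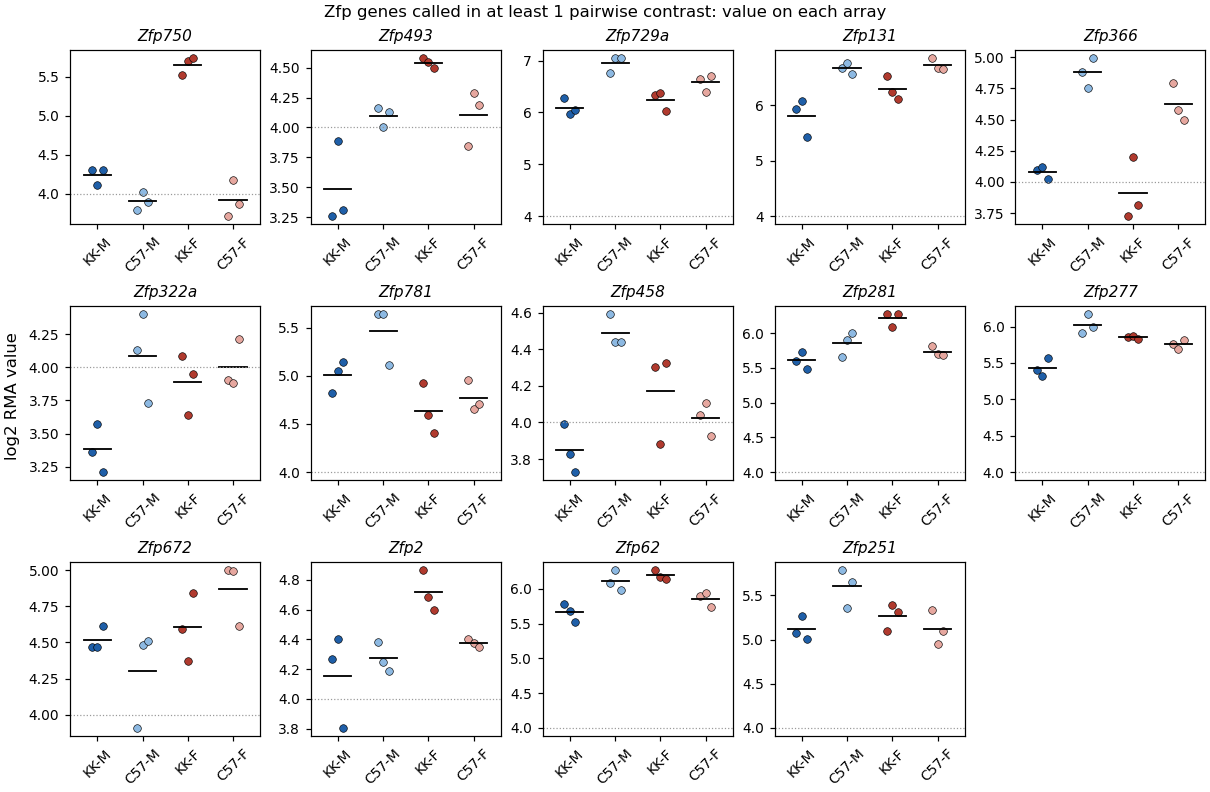
Log2 RMA values of the 14 Zfp genes that were a DEG in at least 1 pairwise contrast, 1 point per array and a line at the mean of 3 arrays, for KK-M, C57-M, KK-F and C57-F. The dotted line is the level of 4, and each panel has its own axis. Zfp750 stands out in KK-F (5.52 to 5.74, against 3.72 to 4.30 on the other 9 arrays), and Zfp366 is low in both KK groups.

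In females, strain DEGs were only Zfp750 and Zfp366. Zfp750, which in the epidermis drives the final differentiation of keratinocytes, was at 5.52, 5.70 and 5.74 in KK-F, against 3.72, 4.17 and 3.88 in C57-F. It was 3.32-fold higher in KK-F (log2 difference 1.73 ± 0.12, limma adjusted p = 3.8e-07), which was the largest difference of any tested Zfp gene. In males its values were 4.30, 4.11 and 4.30 in KK-M, against 3.80, 4.02 and 3.90 in C57-M. That smaller difference of 0.33 ± 0.12 was not called (adjusted p = 0.052), although the male groups did not overlap. Zfp750 passed the filter through the KK groups alone, since both C57 means lay under 4. Among the 4 adrenal cortex markers, Akr1c18, a steroid dehydrogenase known from the X-zone of the female mouse adrenal, was higher in KK-F than in C57-F by 3.98 ± 0.26 (log2, limma adjusted p = 2.4e-07). In the KK sex contrast Akr1c18 differed by -7.398 ± 0.26 on the same scale. The other 3 cortex markers were below 0 in KK-F v C57-F, and of these Dab2 alone was a DEG (-0.53 ± 0.07, adjusted p = 0.00011). KK-F also stood apart in adipocyte markers, with a mean over 4 of them of 5.80 to 5.94, against 6.85 to 7.16 in the other groups, and in the 6 capsule and stroma markers, with 5.75 to 5.82, against 6.20 to 6.65. Of these, 4 and 3 were DEGs in KK-F v C57-F, all lower in KK-F. The part of these shifts in the Zfp750 difference was not tested.

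Zfp366 was the only member that was a DEG in both sexes, and 5.17% of all tested genes were lower in KK in both. Its values in females were 3.73, 4.20 and 3.82 in KK-F, against 4.79, 4.58 and 4.50 in C57-F (log2 difference -0.71 ± 0.12, limma adjusted p = 0.00081). Its mean strain difference over both sexes was -0.75 ± 0.09 (adjusted p = 1.5e-05), and every KK array lay below every C57 array. Because Zfp366 is known from dendritic cells, the immune marker lists are given beside it. The mean over 4 macrophage markers was 7.47 to 7.59 in KK-M, against 8.26 to 8.33 in C57-M, and 7.52 to 7.72 in KK-F, against 7.16 to 7.33 in C57-F. In males 2 of the 4 were DEGs, both lower in KK-M, and in females 3 were higher and 1 lower in KK-F. The mean over 4 lymphocyte markers was 4.47 to 4.81 in KK-M, against 5.20 to 5.42 in C57-M, and 4.68 to 4.92 in KK-F, against 5.06 to 5.16 in C57-F. The part of these cells in the Zfp366 difference was not tested.

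The count of 2 in females was sensitive to single arrays, and it was 5 without replicate 1 or 3 of KK-F or replicate 2 or 3 of C57-F. Besides Zfp750 and Zfp366, 10 members had an adjusted p under 0.05 in KK-F v C57-F with a fold change under 1.4, which is 18.2% of the 55, against 14.3% of all tested genes. Zfp281, a repressor and activator known from mouse embryonic stem cells, differed by 0.48 ± 0.105 (limma adjusted p = 0.0037), just under the threshold of 0.485. Zfp451, whose human form is a SUMO ligase, differed by 0.47 ± 0.10 (adjusted p = 0.0031). Zfp748, also known as KRAB-O and as a partner of the testis-determining factor SRY, differed by -0.44 ± 0.14 (adjusted p = 0.029).

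Sex was compared within each strain. In KK mice the 6 DEGs were lower in males. Against KK-F, Zfp750 was 2.66-fold lower in KK-M (log2 difference -1.41 ± 0.12, limma adjusted p = 2.3e-06). Zfp493 was at 3.26, 3.88 and 3.31 in KK-M, against 4.58, 4.54 and 4.50 in KK-F. It was 2.08-fold lower in KK-M (-1.06 ± 0.15, adjusted p = 0.00021), while in C57 mice it differed by -0.01 ± 0.15 (adjusted p = 0.98). Zfp281 was at 5.60, 5.73 and 5.49 in KK-M, against 6.28, 6.09 and 6.27 in KK-F (-0.61 ± 0.105, adjusted p = 0.00075). All 3 were lower on every KK-M array than on any KK-F array. Zfp281 differed by -0.465 after renewed quantile normalization, under the fold threshold.

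The other 3 DEGs of this contrast were less stable. Of these, Zfp322a had both KK means under 4, at 3.38 in KK-M and 3.89 in KK-F. It passed the filter through C57-M alone, at 4.09. Zfp2 (-0.56 ± 0.13, limma adjusted p = 0.0064) and Zfp62 (-0.53 ± 0.10, adjusted p = 0.0014) were lost without replicate 3 of KK-M, where their differences were -0.38 and -0.46, and under either other scaling of the arrays. Zfp322a (-0.51 ± 0.17, adjusted p = 0.037) was lost without replicate 1 or 3 of either KK group, or replicate 1 of C57-M, under either other scaling, without the filter and with the replicate block (adjusted p = 0.054 to 0.075 in these 4 fits). In C57 mice, Zfp781 was the only member called higher in males. It was at 5.64, 5.64 and 5.11 in C57-M, against 4.95, 4.66 and 4.71 in C57-F (0.69 ± 0.165, limma adjusted p = 0.0064). Zfp672 was lower in males, at 3.91, 4.48 and 4.51 in C57-M, against 5.002, 4.995 and 4.61 in C57-F (-0.57 ± 0.17, adjusted p = 0.021). Its second probeset differed by -0.06, and the difference of the first was lost without replicate 1 of C57-M or replicate 1 or 2 of C57-F. In KK mice, Zfp672 differed by -0.09 ± 0.17 and Zfp781 by 0.37 ± 0.165 between males and females, and neither was called. Without replicate 2 of C57-M, the C57 sex contrast had 5 Zfp DEGs in place of 2.

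The strain difference was then compared between the sexes. For 35 of the 55 Zfp genes it had the same sign in males and females, 15 lower and 20 higher in KK. Across the 55 genes, which are not independent replicates, the 2 differences had a Pearson correlation of 0.41, or 0.39 without Zfp750, and across all tested genes of 0.58. In the test of the interaction, the strain difference in males minus that in females, 8 Zfp genes were called and all 8 were below 0. This is 14.5% of the 55, where 13.9% of all tested genes were called, 10.1% below 0 and 3.81% above 0. The 8 genes were Zfp750, Zfp493, Zfp458, Zfp62, Zfp281, Zfp277, Zfp251 and Zfp451.

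The 8 genes fell into different patterns. For Zfp493 the strain differences ran in opposite directions, -0.61 in males and 0.44 ± 0.15 in females (limma adjusted p = 0.048 in females), giving an interaction of -1.05 ± 0.22 (adjusted p = 0.0058). Zfp62 was alike, with -0.45 ± 0.10 in males and 0.33 ± 0.10 in females, although neither reached 1.4-fold. Zfp277 and Zfp458 differed in males but had small differences of 0.10 ± 0.09 and 0.15 ± 0.12 in females. Zfp281 and Zfp451 had differences of 0.48 ± 0.105 and 0.47 ± 0.10 in females, and of -0.25 ± 0.105 and -0.10 ± 0.10 in males. Zfp251 differed by -0.49 ± 0.13 in males and 0.14 ± 0.13 in females. Its interaction of -0.63 ± 0.19 (adjusted p = 0.038) was called in 4 of the 12 fits that left out an array, being lost without replicate 1 or 3 of KK-M or C57-M and without replicate 2 or 3 of KK-F or C57-F. After renewed quantile normalization 1 gene was called above 0 and 6 below 0, and Zfp251 and Zfp451 were lost. Among all 4419 genes tested under that scaling, 292 were called above 0 and 257 below 0. With the sexes averaged, 4 genes differed by strain (1 higher, 3 lower in KK), against 15.5% of all tested genes (6.84% higher, 8.63% lower). These were Zfp750 (1.03 ± 0.085, limma adjusted p = 6.7e-07), Zfp366, Zfp131 (-0.645 ± 0.11, adjusted p = 0.00034) and Zfp729a (-0.60 ± 0.09, adjusted p = 0.00015). With the strains averaged, 3 genes differed by sex, against 8.61% of all tested genes. Zfp781 was higher in males (0.53 ± 0.12, adjusted p = 0.0037), where 4.62% of all tested genes were. Zfp750 (-0.715 ± 0.085, adjusted p = 3.3e-05) and Zfp493 (-0.53 ± 0.11, adjusted p = 0.0023) were lower in males, where 3.99% were.

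**Figure D3:**
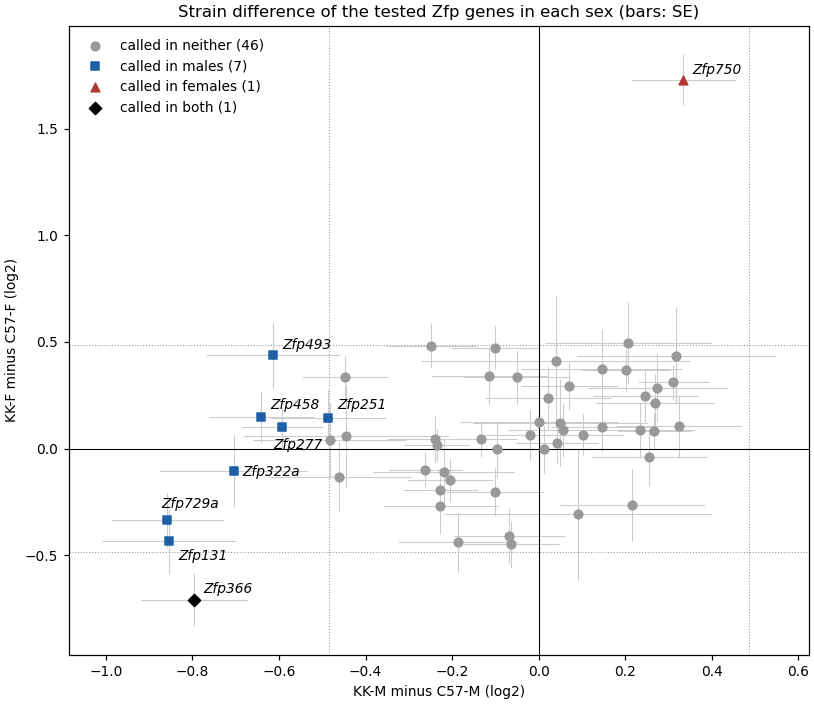
Strain difference of each of the 55 tested Zfp genes in males (x axis, KK-M minus C57-M, log2) and in females (y axis, KK-F minus C57-F, log2), with bars for the SE and dotted lines at 1.4-fold. The 7 genes called in males alone lie on the left, Zfp750 at the top, and Zfp366, called in both, at the lower left.

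Members lay only on chromosomes 1, 8 and 10 to 15, and Zfp genes elsewhere were not analysed here. Among these chromosomes, chromosome 13 held the most members, 33 of 86, of which 18 were tested. Of the 8 Zfp DEGs of KK-M v C57-M, 6 lie there (Zfp729a, Zfp131, Zfp366, Zfp322a, Zfp458 and Zfp493), which is 33.3% of the 18. Of these, Zfp366, Zfp322a, Zfp458 and Zfp493 reached a level of 4 in some groups only, so this share rests in part on the filter. Zfp322a, Zfp458 and Zfp493 lay under 4 in KK-M, at means of 3.38, 3.85 and 3.48, and passed through groups where they were higher. Of the 448 other tested genes of chromosome 13, 18.5% were lower in KK-M. On the other chromosomes 2 of 37 Zfp genes were lower (5.41%), against 12.8% of the 3911 other genes. These shares are a description, since the chromosome was singled out with its values known. In the order of genes in the RefSeq table, 19 of the members follow each other on chromosome 13 with at most 5 other genes between neighbours, starting with Zfp712 and ending with Zfp273. RefSeq gives 15 of the 19 a synonym of the Rsl series, for regulator of sex-limitation candidates. Rsl1 and Rsl2 are KRAB zinc finger repressors that act on genes expressed mainly in the male liver of mice. Zfp429 is Rsl2. It stayed under the filter, at means of 3.54 in KK-M against 3.52 in C57-M, and 3.37 in KK-F against 3.34 in C57-F.

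Only 8 of the 19 passed the filter, so the whole run was also read in a fit without it, over 6986 genes. In that fit 14 of the 19 had a difference below 0 in KK-M v C57-M, and the median of the run was -0.13, against 0.01 over all genes. In the same fit 5 of the 19 were called lower in KK-M and 0 higher, where 8.63% of all genes were lower and 4.85% higher. These were Zfp729a, Zfp458, Zfp493, Zfp455 (-0.61 ± 0.18, limma adjusted p = 0.035) and Zfp874a (-0.75 ± 0.225, adjusted p = 0.034). Zfp455 and Zfp874a had means under 4 in every group, so their differences rest on low signals. In KK-F v C57-F limma called none of the 19, against 5.93% of all genes lower and 6.11% higher, and the run's median was 0.00. Of the run's other members, Zfp457 had a difference above 0, at 0.31 ± 0.22 in males and in females, but was not called (limma adjusted p = 0.4 in each). Its group means of 2.24 to 2.60 lay under the filter, so this difference too rests on low signals. Zfp456 differed by -0.40 ± 0.15 in males and -0.39 ± 0.15 in females, and neither was called. Its other probeset, of similar signal, differed by -0.07 and 0.00. In the KK sex contrast limma called Zfp493 alone, against 7.36% of all genes lower and 4.78% higher. In the C57 sex contrast it called none, against 1.69% lower and 2.76% higher.

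**Figure D4:**
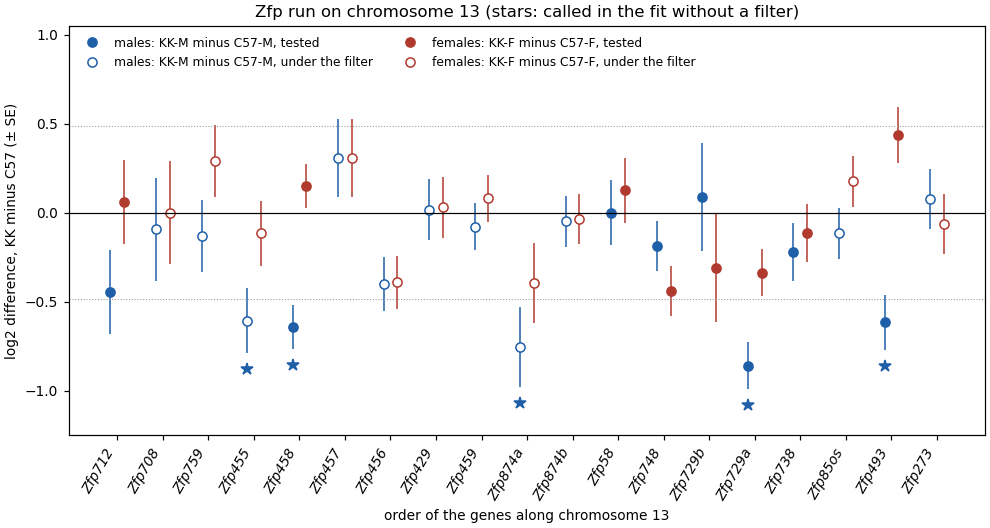
Log2 difference between strains (± SE) of the 19 neighbouring Zfp genes of chromosome 13, in gene order, in males (blue, KK-M minus C57-M) and females (red, KK-F minus C57-F), from the fit without a filter. Filled points are the 8 genes that passed the filter, dotted lines mark 1.4-fold, and stars mark the 5 called differences, all in males and all lower in KK-M.

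Neighbours in the run had different values. Zfp729b, which lies next to Zfp729a, was at 4.89, 4.01 and 5.72 in KK-M, against 4.77, 4.93 and 4.65 in C57-M, and its KK-M arrays were farther apart than those of Zfp729a. Its difference of 0.09 ± 0.30 (limma adjusted p = 0.89 in the fit without a filter) leaves room for changes of either sign. The genes of the run are related copies, and whether their probes also bind transcripts of a neighbour was not checked, so a difference assigned to 1 of them is uncertain in that respect. Whether sequence differences between the strains lie under the probes was not checked either, and a strain difference of any gene here can also hold a difference in probe binding. Zfp738 differed by -0.22 ± 0.16, Zfp58 by 0.00 ± 0.18 and Zfp748 by -0.19 ± 0.14 between KK-M and C57-M.

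Several of these genes are alike in sequence around their start sites. RefSeq (GRCm38.p6) promoter windows, from 250 bases before to 50 after the start, were at hand for 65 of the 86 members. The windows of Zfp729a and Zfp738 had 249 of 300 bases identical when aligned (83.0%), although Zfp729a was called in KK-M v C57-M and Zfp738 was not. The windows of Zfp458, which was called, and Zfp457, which was not, had 151 of 300 bases identical (50.3%). Most other pairs of windows in the run shared more, so this pair was not among the alike ones. Both uncalled genes had low signals, with group means of 3.74 to 4.01 for Zfp738 and 2.24 to 2.60 for Zfp457. The windows of Zfp458 and Zfp457 are shown beside those of Zfp729a and Zfp738. All 4 are written 5′ to 3′ on the strand of the gene, with the shared run ACTTGTGGGA in capitals.
Zfp729a (chr13:67637732-67638031, minus strand): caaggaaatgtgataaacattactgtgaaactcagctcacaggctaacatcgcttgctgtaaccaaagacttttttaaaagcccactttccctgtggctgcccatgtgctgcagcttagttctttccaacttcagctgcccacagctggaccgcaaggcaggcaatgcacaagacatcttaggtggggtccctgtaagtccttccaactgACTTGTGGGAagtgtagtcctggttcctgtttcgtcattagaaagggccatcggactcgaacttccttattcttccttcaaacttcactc
Zfp738 (chr13:67683463-67683762, minus strand): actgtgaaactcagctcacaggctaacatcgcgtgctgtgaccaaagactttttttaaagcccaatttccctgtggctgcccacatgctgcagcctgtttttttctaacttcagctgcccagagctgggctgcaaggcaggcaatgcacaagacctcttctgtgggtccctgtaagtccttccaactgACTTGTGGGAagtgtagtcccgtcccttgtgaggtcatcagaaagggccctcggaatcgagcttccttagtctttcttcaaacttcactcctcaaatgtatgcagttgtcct
Zfp458 (chr13:67268945-67269244, minus strand): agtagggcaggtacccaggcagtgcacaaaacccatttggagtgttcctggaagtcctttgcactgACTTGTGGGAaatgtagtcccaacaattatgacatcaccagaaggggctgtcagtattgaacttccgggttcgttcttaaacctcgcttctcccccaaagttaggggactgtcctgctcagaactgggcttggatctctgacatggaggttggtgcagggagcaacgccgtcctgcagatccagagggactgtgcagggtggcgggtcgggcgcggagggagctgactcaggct
Zfp457 (chr13:67306363-67306662, minus strand): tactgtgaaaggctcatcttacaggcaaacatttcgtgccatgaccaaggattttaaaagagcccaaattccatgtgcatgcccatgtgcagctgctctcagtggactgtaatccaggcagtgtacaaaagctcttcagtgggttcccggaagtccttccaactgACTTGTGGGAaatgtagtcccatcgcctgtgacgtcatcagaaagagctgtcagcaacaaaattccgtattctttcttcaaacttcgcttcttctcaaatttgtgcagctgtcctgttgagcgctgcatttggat
This was the 10-base run held by most windows of the chromosome 13 genes, with 7 such runs tied and the rarest among all promoters taken, so the shares below describe the choice and test nothing. It was then searched on both strands. It was in 8 of the 18 windows of the chromosome 13 run (44.4%), which belong to 17 genes. It was in 1 of the 64 windows of the other members (1.56%) and in 32 of all 32851 promoter windows (0.0974%). The 8 genes were Zfp458, Zfp457, Zfp874a, Zfp874b, Zfp58, Zfp748, Zfp729a and Zfp738, so both called and uncalled genes held it. These are matches of letters and no binding was measured.

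A shorter run on chromosome 11 held Zfp354c, Zfp879, Zfp454, Zfp2 and Zfp354b. Of its 3 tested genes, Zfp354c differed by 0.27 ± 0.09 in KK-M v C57-M (limma adjusted p = 0.03) and by 0.08 ± 0.09 in KK-F v C57-F, both under 1.4-fold. Zfp454 differed by 0.27 ± 0.14 and 0.21 ± 0.14 in the same contrasts and was not called. Only Zfp2 was a DEG, between the sexes of the KK strain.

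The members with the highest mean signal on the 12 arrays were Zfp706, Zfp36l1, Zfp207, Zfp346 and Zfp395, and none was a DEG. Zfp36l1, which directs the decay of mRNAs with AU-rich elements, Star mRNA of steroid-producing cells among them, was at 9.27, 9.29 and 9.35 in KK-M, against 9.64, 9.46 and 9.49 in C57-M. In females it was at 9.30, 9.27 and 9.12 in KK-F, against 9.43, 9.34 and 9.50 in C57-F. The KK arrays were lower in both sexes without overlap, by 0.23 ± 0.09 in males and 0.19 ± 0.09 in females, under the fold threshold. Its mean strain difference of -0.21 ± 0.06 had a limma adjusted p of 0.013. Zfp706 differed by -0.26 ± 0.08 (adjusted p = 0.032) and Zfp207, whose protein binds kinetochores, by -0.24 ± 0.075 (adjusted p = 0.029) in KK-M v C57-M. Zfp346, a protein that binds double-stranded RNA, differed by -0.02 ± 0.12 in males and 0.06 ± 0.12 in females. Zfp395 was higher in males of both strains by less than 1.4-fold, at 0.28 ± 0.09 in KK mice and 0.26 ± 0.09 in C57 mice.

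Of the 86 members 7 had several probesets. Besides Zfp322a, Zfp456 and Zfp672, the probesets of Zfp39 disagreed. The brighter probeset of Zfp39 differed by -0.41 and the other by 0.22 in KK-F v C57-F. Those of Zfp36l1 ran the same way in every contrast.

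The partners of KRAB zinc finger proteins were examined beside them. Of the cofactors listed, 8 were tested, and Trim28 was not analysed here. Tasor, a subunit of the HUSH silencing complex, was at 5.675, 6.34 and 5.97 in KK-M, against 6.79, 6.65 and 6.62 in C57-M (log2 difference -0.69 ± 0.17, limma adjusted p = 0.0065). In females Tasor differed by 0.01 ± 0.17. Hdac2, a histone deacetylase, was lower in males in the KK sex contrast, with a difference of -0.77 ± 0.10 (adjusted p = 9e-05). The other 6 (Cbx1, Cbx3, Pphln1, Morc2a, Dnmt3a and Nsd1) were DEGs in no pairwise contrast. Thus 1 of the 8 was called in the male strain contrast and 1 in the KK sex contrast (12.5% each), against 20.4% and 18.8% of all tested genes. The list median was -0.06 in KK-M v C57-M and 0.20 in KK-F v C57-F. Of zinc finger genes with other symbols, such as the Klf and Zbtb genes, 41 were tested. In KK males 5 were lower and 1 higher than in C57 males, and in KK females 1 was lower and 2 higher than in C57 females. These were 14.6% and 7.32% of the 41, against 20.4% and 18.6% of all tested genes. Between the sexes 4 were lower in KK males (9.76%, against 18.8% of all tested genes), and limma called none in C57 mice, against 7.07%. Rsl1 itself lay under the filter, at 3.35, 3.055 and 2.94 in KK-M, against 3.99, 4.275 and 3.15 in C57-M.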

How the data were processed

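Adrenal RNA of 4 groups, 1 pool of mice each, was measured on 12 arrays, grouped by the labels. The authors deposited log2 expression values, which they had made with the robust multi-array average (RMA: background correction, quantile normalization and median polish) in the Partek software, and these were used as given. GEO's platform annotation gave 1 gene for 7358 of 16378 probesets, several for 456 and none for 8564. Only single-gene probesets were used, with the brightest kept per gene. The members lay on chromosomes 1, 8 and 10 to 15, and Zfp genes elsewhere were not analysed here. Matching by gene ID to RefSeq (GRCm38.p6) placed 85 of 86 members. The build of the probesets is not given in the sources used here.

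Limma 3.58.1 (R 4.3.3) was run on the 4414 genes with a group mean of at least 4, using the 12 arrays together and a coefficient for each group (8 residual and 4.84 prior degrees of freedom). The 4 pairwise contrasts shared a Benjamini-Hochberg adjustment, and the interaction and the mean strain and sex differences each had their own. The fit was tested on simulated data. Promoters were aligned with Biopython 1.88. The genes named were the DEGs of each contrast, the runs of neighbouring members, the 5 members of highest signal and those whose probesets disagreed. Alternatives were other filters, scalings, variance models, probeset rules, thresholds, p adjustments, a replicate block and leaving out each array. The members and lists were chosen with earlier results of these data known. The number of arrays limits the precision, and no p-value covers the spread between mice.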

Additional observations from a re-analysis of the deposited data

Results flagged for a closer look

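For 8 Zfp genes the strain difference in males was tested against that in females and differed (limma adjusted p under the threshold and at least 1.4-fold). Males minus females, it was -1.40 ± 0.17 for Zfp750 (adjusted p = 0.00015), -1.05 ± 0.22 for Zfp493 (adjusted p = 0.0058), -0.79 ± 0.17 for Zfp458 (adjusted p = 0.0075) and -0.78 ± 0.14 for Zfp62 (adjusted p = 0.0025) on the log2 scale. It was -0.73 ± 0.15 for Zfp281 (adjusted p = 0.0052), -0.69 ± 0.13 for Zfp277 (adjusted p = 0.0036), -0.63 ± 0.19 for Zfp251 (adjusted p = 0.038) and -0.58 ± 0.14 for Zfp451 (adjusted p = 0.016). These 8 are 14.5% of the 55, against 13.9% of all tested genes. All 8 were below 0, where 10.1% of all tested genes were called below 0 and 3.81% above 0. Zfp251 was called in 4 of the 12 fits that left out an array, and Zfp251 and Zfp451 were lost after renewed quantile normalization. Over all tested genes the median of the strain difference in males minus that in females was -0.08, and that of the 55 Zfp genes was -0.12. The skeletal muscle markers, raised in KK-M alone, had a median of 2.25 in the same test, and their part in these results was not tested.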

How the results depend on the processing

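No difference of a DEG changed its direction under any alternative that was run. Apart from the 2-fold threshold, 23 of the 33 called differences were called in every alternative that held the gene, but 9 of the 23, those of Zfp366, Zfp458, Zfp493 and Zfp322a, had no value at the filter of 5. Zfp322a also had no value with the mean of the probesets. With a filter at a group mean of 5, 34 Zfp genes were tested. Of these, 4 and 1 were called for strain in males and females and 3 and 1 for sex in KK and C57 mice. These counts stood in place of 8, 2, 6 and 2. Of all 3356 genes tested at that filter, 788, 727, 758 and 265 were called, in the same order. At 2-fold the Zfp counts were 0, 1, 2 and 0, with 2 for the interaction, 1 for the mean strain and 0 for the mean sex difference. Of all 4414 genes, 170, 184, 155 and 34 were called at 2-fold, with 131 for the interaction, 133 for the mean strain and 58 for the mean sex difference. The mean of the probesets, or a fit of only the compared groups, left 1 Zfp DEG in C57-M v C57-F. An intensity trend in the variance gave 3 there. Leaving out single arrays gave 7 to 10 in KK-M v C57-M, 2 to 5 in KK-F v C57-F, 4 to 9 in KK-M v KK-F, 2 to 5 in C57-M v C57-F, 7 to 9 for the interaction, 4 to 5 for the mean strain and 2 to 3 for the mean sex difference. Renewed quantile normalization moved the median of all genes in KK-M v KK-F to 0.06, against -0.06 as deposited, and that of the interaction to 0.04, against -0.08. It gave 7 in KK-M v C57-M (0 higher, 7 lower), 6 in KK-F v C57-F (1 higher, 5 lower, against 1 and 1), 4 in KK-M v KK-F (2 and 2, against 0 and 6), 4 in C57-M v C57-F (3 and 1, against 1 and 1), 7 for the interaction (1 and 6, against 0 and 8) and 2 for the mean sex difference (1 and 1). Among all 4419 genes under that scaling, the interaction called 292 above 0 and 257 below 0. The mean sex difference called 267 higher and 143 lower. Median centring gave 4 in KK-F v C57-F (1 and 3), 3 in KK-M v KK-F (0 and 3), 5 in C57-M v C57-F (4 and 1) and 2 for the mean sex difference (1 and 1). Among all 4416 genes tested with it, 348 were higher and 469 lower in KK-F v C57-F, and 443 and 352 in KK-M v KK-F. For C57-M v C57-F these were 226 and 97, and for the mean sex difference 267 and 137. The counts lower in KK-M v KK-F thus depend on the scaling, under which Zfp2, Zfp62 and Zfp322a were lost with either, and Zfp281 with quantile normalization. With the replicate number as a block, 8, 2, 5, 2, 7, 4 and 3 were called in the 4 pairwise contrasts, the interaction and the mean strain and sex differences. Deviations of arrays with the same number correlated by -0.10 to 0.12, so the arrays share only a number. The causes were not tested.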
